A study of Sus scrofa with 12 samples.

Results

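Blastocyst hatching was examined in pig embryos that developed in vivo (IVV). Hatched blastocysts (IVV HB) were set against expanded blastocysts (IVV XB), both collected from artificially inseminated gilts. The comparison held 6 of the 12 arrays of the series, chosen by their labelled stage and origin, with 3 arrays of IVV HB and 3 of IVV XB. Each array carried the amplified RNA of a pool of 5 embryos, and the 3 pools of a stage were separate biological replicates. All 3 IVV HB pools were labelled day 5.5 after insemination. IVV XB 1 and IVV XB 2 were labelled day 5 and IVV XB 3 day 6, so this pool of unhatched embryos was labelled later than every hatched pool. The other 6 arrays held parthenogenetic embryos (PA HB and PA XB, 3 each), which came from oocytes matured and activated in vitro and cultured in mNCSU23-based medium. Beyond the in vivo donors being gilts, females that had not farrowed, no strain, sex or parity was given in the sources used here. Neither embryo group carried a genetic modification.

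A blastocyst is a hollow ball whose outer epithelium, the trophectoderm, pumps fluid into a central cavity and surrounds the inner cell mass. The hypoblast, an early endoderm, forms on the inner cell mass. An expanded blastocyst has thinned its glycoprotein coat, the zona pellucida, and hatching is the escape from that coat. In the pig this happens in the uterus, well before the conceptus elongates and attaches, and it exposes the trophectoderm directly to the uterine fluid.

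Each value was the log2 ratio of the embryo sample (Cy5) over a common reference (Cy3) made of amplified RNA from pig oocytes and embryos up to day 11, on an array designed for porcine embryos. A ratio therefore compares samples for 1 probe, and ratios of different probes say nothing of which transcript is more abundant. Of the 24908 probes, 10735 carried 1 gene symbol and together named 7777 genes. In pools of whole embryos, fewer cells of a type and less RNA per cell cannot be told apart, and this holds for every change below. With 3 pools per stage, the number of arrays limits the precision.

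The arrays did not separate cleanly by stage. Each IVV array was placed on the line between the mean of the other IVV XB arrays (position 0) and the mean of the other IVV HB arrays (position 1), over all probes. IVV HB 1, HB 2 and HB 3 lay at 0.35, 0.82 and 0.81, and IVV XB 1 and XB 2 lay at 0.04 and 0.04. The day 6 pool, IVV XB 3, lay at 0.73, among the hatched pools, while IVV HB 1 lay nearer to the unhatched end. IVV HB 1 correlated at 0.784 with IVV HB 2 and at 0.846 with IVV XB 2. Over all probes the values of IVV XB 3 correlated at 0.881, 0.863 and 0.82 with IVV HB 3, HB 1 and HB 2. With IVV XB 1 and XB 2 they correlated at 0.807 and 0.806. These are correlations across probes that share a reference, and probes are not independent replicates. Results below are therefore given with all 6 arrays, and calls that were gained for a named gene when the day 6 pool was left out are given beside them.

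**Figure D1:**
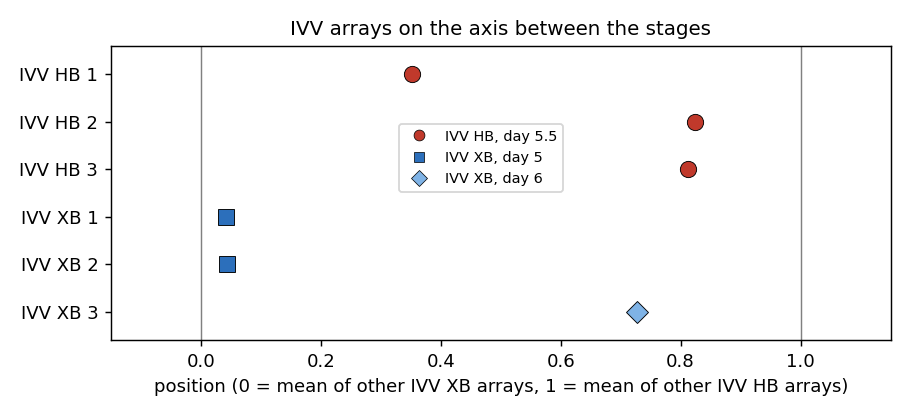
Position of each of the 6 IVV arrays (rows) on the axis from the IVV XB mean (0) to the IVV HB mean (1), the array itself being left out of the means. The day 6 IVV XB pool lies at 0.73, close to IVV HB 2 and HB 3 and far from the day 5 pools at 0.04.

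Between IVV HB and IVV XB, 37 probes differed at a Benjamini-Hochberg adjusted p of at most 0.05 in limma and by at least 2-fold, which is 0.149% of all probes. Of these, 16 were higher (0.0642%) and 21 lower (0.0843%) in IVV HB. When all arrays were scaled to the same spread, 71 were higher and 54 lower. The called probes named 16 genes, 9 higher and 7 lower, and 19 called probes carried no symbol. At an unadjusted p under 0.05 there were 1583 probes. In all 37 called probes the 3 IVV HB values lay outside the range of the 3 IVV XB values. This follows largely from the call itself, which used the same 6 values, and it was so for 12.1% of all probes. Of 31 genes that the study discusses for hatching, 22 were measured, and 8 were called higher and 4 lower, which is not independent evidence, since they were chosen on these samples. Without the day 6 pool all 37 probes stayed called, among 271. With the labelled day as a covariate among the IVV arrays 22 of the 37 stayed called, among 53, and in the fit of the IVV arrays alone 18 did, among 26. Only IL6, LOC100514912 and LOC100512298 kept their call whichever of the 6 arrays was left out, and the other 13 genes lost it without at least 1 array. DPP4 and APOE lost it only without IVV HB 3, ATP6V0D2 without IVV HB 3 or XB 2, MAP1LC3B without IVV HB 2, HB 3 or XB 2, and EIF2AK4 without IVV HB 3, XB 1 or XB 2. The calls of NPC1, ACP6, GNPDA1, HSP90AA1, GAPDH, SFT2D2 and LOC100519871 were lost without any of 4 arrays. Without IVV HB 3 only 5 probes were called, all lower, and without IVV XB 2 there were 6.

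**Figure D2:**
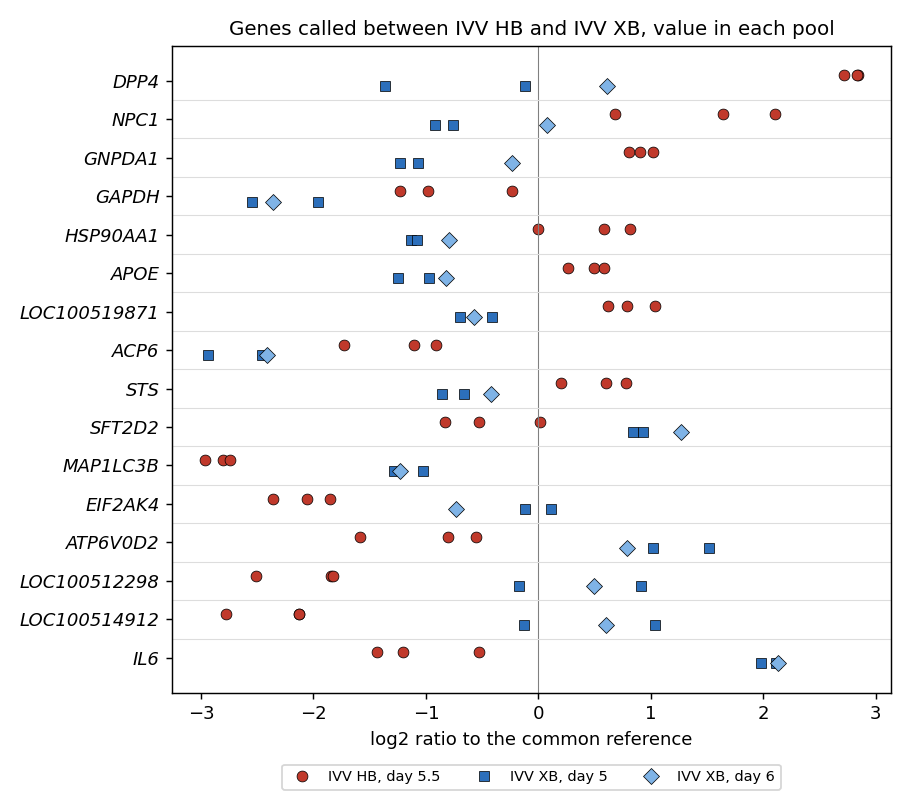
Log2 ratio to the common reference (horizontal axis) of the 16 genes called between IVV HB and IVV XB, with a point for each pool. In every gene the circles of IVV HB lie apart from the squares and diamond of IVV XB. The day 6 pool is the IVV XB pool nearest to IVV HB for DPP4, NPC1, GNPDA1, APOE, HSP90AA1, STS, ACP6, EIF2AK4 and ATP6V0D2.

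The strongest single difference was a fall in IL6, the cytokine that signals through gp130 and that pig blastocysts and endometrium are both known to express. The IL6 ratio was -0.53, -1.21 and -1.43 in IVV HB, against 1.98, 2.11 and 2.13 in IVV XB. All hatched pools were far below all unhatched pools, and the day 6 pool was as high as the day 5 pools. IL6 was 8.76-fold lower in IVV HB (log2 fold change -3.13, SE 0.24, limma adjusted p = 1.07e-04), and leaving out any 1 array gave an adjusted p of at most 0.00211. IL6ST, which encodes gp130, had a log2 fold change of 0.09, and JAK1, a kinase of the same pathway, -0.49 (adjusted p = 0.788). Of the 24 measured genes of cytokines, their receptors and the interferon response, IL6 was the 1 called gene, and the list's median log2 fold change was 0.05, beside 0.03 over all 7777 named genes. IL1B, the gene of the cytokine that the pig conceptus is known to secrete at elongation, stayed at low ratios at both stages, -5.06, -3.37 and -4.37 in IVV HB and -4.82, -4.42 and -4.55 in IVV XB.

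DPP4 showed the greatest rise among called probes. DPP4 encodes dipeptidyl peptidase 4, an ectoenzyme of epithelial surfaces that trims peptides and chemokines. The DPP4 probe read 2.84, 2.83 and 2.72 in IVV HB, against -0.12, -1.36 and 0.61 in IVV XB. The hatched pools were nearly equal and the unhatched pools spread widely, with the day 6 pool the highest of them. DPP4 was 8.50-fold higher in IVV HB (log2 fold change 3.09, SE 0.38, adjusted p = 0.00603), and 3.54 on the log2 scale without the day 6 pool. Without IVV HB 3 the DPP4 call was lost, at an adjusted p of 0.05004. A second DPP4 probe differed by 0.32 (adjusted p = 0.955). DPP4 was the 1 called gene among 23 measured secreted and membrane proteases and inhibitors, whose median was -0.01. LGMN, the gene of legumain, an asparaginyl endopeptidase of lysosomes, just missed the threshold, with 0.65, 0.39 and 0.10 in IVV HB against -0.99, -0.89 and -0.89 in IVV XB (log2 fold change 1.30, SE 0.24, adjusted p = 0.0531). Its groups did not overlap, and it passed when the day 6 pool was left out (1.32, adjusted p = 0.0394).

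Genes that move sterols and lipoprotein lipid were among the called genes, all of them higher in IVV HB. NPC1, the membrane protein that exports cholesterol from late endosomes, read 0.68, 1.64 and 2.11 in IVV HB, against -0.92, -0.76 and 0.08 in IVV XB (log2 fold change 2.01, SE 0.34, adjusted p = 0.0412). APOE, the ligand of lipoprotein receptors, read 0.27, 0.49 and 0.58 in IVV HB, against -1.25, -0.97 and -0.82 in IVV XB (1.46, SE 0.18, adjusted p = 0.00603). In both genes every hatched pool exceeded every unhatched pool. A second APOE probe did not differ (0.03), and averaging the probes of a gene before the fit ended the APOE call. NPC2, the soluble partner that hands cholesterol to NPC1, had 1.43, 1.67 and 1.53 in IVV HB against -0.33, 0.35 and 0.77 in IVV XB, a log2 fold change of 1.28 that did not pass with all arrays (adjusted p = 0.159) and did without the day 6 pool (1.53, adjusted p = 0.0304). APOA1 and APOA2, apolipoproteins of high-density particles, had log2 fold changes of 1.88 and 1.49 with adjusted p of 0.103 and 0.523. ACP6, an acid phosphatase that acts on lysophosphatidic acid, read -1.73, -1.11 and -0.91 in IVV HB, against -2.46, -2.94 and -2.41 in IVV XB (1.35, adjusted p = 0.0449), with 0.08 on its second probe. Of 22 measured lipoprotein and cholesterol transport genes, 2 were called higher and none lower, where 0.116% and 0.09% of named genes were called higher and lower, and the list's median was 0.21. The 12 measured genes of sterol synthesis had no call in either direction and a median of 0.03.

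None of 28 measured lysosomal proteases, hydrolases and membrane proteins was called with all arrays. Their median log2 fold change was 0.31, and 8 were higher and 2 lower at an unadjusted p under 0.05, which is 35.7% of the list beside 7.9% of all named genes. PSAP, the precursor of the saposins that help degrade sphingolipids, had log2 fold changes of 1.53, 1.35 and 1.25 on 3 probes (adjusted p = 0.0804, 0.0725 and 0.334), and the first and second of these PSAP probes passed without the day 6 pool (1.66 and 1.43, adjusted p = 0.0383 and 0.0404). On the first of these PSAP probes IVV HB read 2.07, 1.22 and 2.24, against -0.07, 0.44 and 0.56 in IVV XB, with no overlap. LIPA, lysosomal acid lipase, ran the other way at -2.12 (adjusted p = 0.33), and was called lower without the day 6 pool, with values given further on. Without that pool 2 of the 28 genes were called higher and 2 lower, where 0.386% and 1.22% of all named genes were.

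The subunits of the V-ATPase, the proton pump that acidifies lysosomes and is also placed at the apical surface of some epithelia, did not move together. ATP6V0D2, a tissue-restricted form of the d subunit, read -0.56, -0.80 and -1.59 in IVV HB, against 1.02, 1.52 and 0.78 in IVV XB. It was 4.25-fold lower in the hatched pools (log2 fold change -2.09, SE 0.28, adjusted p = 0.00944). ATP6V0D1, the form of the d subunit found in most cells, read 0.20, 0.83 and 1.68 in IVV HB, against -0.15, -0.47 and 0.08 in IVV XB (1.08, SE 0.31, adjusted p = 0.315), so the sign of the difference was opposite in the paralogs, although the ATP6V0D1 difference did not pass. ATP6V1C1, a subunit of the stalk of the pump, had 1.27 (adjusted p = 0.0675), or 1.29 without the day 6 pool (adjusted p = 0.0469), and 0.26 on a second probe. TCIRG1, ATP6V1A and ATP6V0C had 0.96, 0.72 and 0.95 with adjusted p between 0.36 and 0.417. Over 19 measured subunits, none was called higher and 1 lower, and the median was 0.28. At an unadjusted p under 0.05, 6 were higher and 2 lower, 42.1% of the list beside 7.9% of all named genes.

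MAP1LC3B, an LC3 protein that is attached to the autophagosome membrane, read -2.80, -2.96 and -2.75 in IVV HB, against -1.28, -1.02 and -1.23 in IVV XB. The pools of each stage were close to each other, and MAP1LC3B was 3.15-fold lower in IVV HB (log2 fold change -1.66, SE 0.23, adjusted p = 0.0104). Its other probes had -0.36 and -0.05, and the call was lost with quantile normalization or with the mean of its probes. GABARAPL2, a relative that also joins the autophagosome, and ULK1, the kinase that starts autophagy, had -0.77 and -0.78 (adjusted p = 0.227 and 0.338). MAP1LC3A had -0.17 and GABARAP -0.06. Among 19 measured autophagy genes, 1 was called lower and none higher, and the median was -0.17. At an unadjusted p under 0.05, 5 were lower and none higher, 26.3% of the list beside 7.9% of all named genes.

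EIF2AK4, which encodes the kinase GCN2 that senses amino acid shortage and phosphorylates eIF2, read -1.85, -2.05 and -2.36 in IVV HB, against -0.12, 0.11 and -0.73 in IVV XB (log2 fold change -1.84, SE 0.26, adjusted p = 0.0108). None of 35 translation initiation and elongation genes was called, and their median was 0.02. SFT2D2, a vesicle transport protein, read 0.02, -0.53 and -0.83 in IVV HB, against 0.85, 0.93 and 1.27 in IVV XB (-1.47, adjusted p = 0.0449). Both genes had all hatched pools below all unhatched pools.

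Among sugar-handling enzymes GNPDA1 was called. GNPDA1, glucosamine-6-phosphate deaminase, which turns amino sugar back into fructose-6-phosphate, read 0.81, 1.02 and 0.90 in IVV HB, against -1.07, -1.23 and -0.24 in IVV XB (log2 fold change 1.76, SE 0.26, adjusted p = 0.0188). Its second probe had 0.40, and its paralog GNPDA2 -0.34. B4GALT5, a galactosyltransferase that makes lactosylceramide, read 0.88, 1.22 and 0.99 in IVV HB, against -0.85, -0.94 and -0.49 in IVV XB. B4GALT5 missed the threshold (1.79, SE 0.33, adjusted p = 0.0563) and passed without the day 6 pool (1.92, adjusted p = 0.0244). PGM3 and UAP1, which make the activated amino sugar UDP-GlcNAc, had -0.86 and -0.97 (adjusted p = 0.227 and 0.302), although other UAP1 probes had 0.13 and 0.06. In all, 1 of 31 measured glycosylation and amino sugar genes was called higher, and their median was 0.03.

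GAPDH, a glycolytic enzyme often used as a loading control, read -0.98, -1.23 and -0.23 in IVV HB, against -1.96, -2.54 and -2.36 in IVV XB (log2 fold change 1.47, SE 0.26, adjusted p = 0.0449). TPI1, which supplies the substrate of GAPDH, had 0.91 (adjusted p = 0.157), and PGK1 -0.21. LDHA, which turns pyruvate into lactate, had -1.25 (adjusted p = 0.331), or -1.76 without the day 6 pool, where it passed (adjusted p = 0.00583). GAPDH was the 1 called gene of 26 measured glycolysis genes, with a list median of 0.04. HSP90AA1, the inducible form of the HSP90 chaperone, read 0.00, 0.58 and 0.81 in IVV HB, against -1.13, -1.08 and -0.80 in IVV XB (1.47, adjusted p = 0.0449), with 0.88 on a second probe and 0.53 for its paralog HSP90AB1. It was the 1 call among 35 heat shock and chaperonin genes, whose median was 0.01.

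STS, steroid sulfatase, frees oestrogens and other steroids from their sulfates. It read 0.78, 0.61 and 0.20 in IVV HB, against -0.86, -0.66 and -0.42 in IVV XB, and was 2.25-fold higher (log2 fold change 1.17, SE 0.19, adjusted p = 0.0388). This smallest of the called increases lost its call without any of 5 of the 6 arrays. Among 17 measured steroid and prostaglandin enzymes STS was the only call. PTGES, a prostaglandin E synthase, had 0.97 (adjusted p = 0.486), and CYP17A1, HSD3B1 and STAR, of steroid synthesis, had 0.18, 0.13 and 0.13.

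Further called probes belong to transcripts known only by a locus number. LOC100514912 was lower in IVV HB on all 3 of its probes, by log2 fold changes of -2.91, -2.85 and -1.68 (adjusted p = 0.00512, 0.00103 and 0.0176). On the second of these probes LOC100514912 read -2.13, -2.13 and -2.78 in IVV HB, against -0.13, 1.04 and 0.60 in IVV XB. LOC100512298, listed as a pseudogene in the RefSeq pig annotation, read -1.84, -1.83 and -2.51 in IVV HB, against -0.17, 0.91 and 0.50 in IVV XB (-2.47, adjusted p = 0.00419). The profiles of these transcripts were alike over the 6 pools, and whether their probes share a target was not tested. LOC100519871 was higher (1.38, adjusted p = 0.0388). The 19 unnamed called probes had log2 fold changes from -2.60 to 2.34.

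ATP5G1 illustrates how far probes of a gene can differ. This gene encodes a form of the c subunit of the mitochondrial ATP synthase. Of 5 ATP5G1 probes, 4 had log2 fold changes of 1.34, 1.25, 1.23 and 1.14, with adjusted p between 0.0745 and 0.133, and the last had -0.03. Without the day 6 pool 2 of the ATP5G1 probes passed (1.65 and 1.20, adjusted p = 0.00471 and 0.0429). Its paralogs ATP5G2 and ATP5G3, which encode the same mature subunit, had 0.16 and 0.20. None of the 49 measured respiratory chain and ATP synthase genes was called, and the list's median was -0.03.

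No gene of the trophectoderm passed the threshold. GATA2, a transcription factor of trophoblast genes, read 1.13, 2.39 and 1.86 in IVV HB, against 0.53, 0.32 and 0.73 in IVV XB, with no overlap (log2 fold change 1.27, SE 0.28, adjusted p = 0.139). KRT8, the type II keratin of simple epithelia, read -0.16, 0.60 and 0.27 in IVV HB, against -0.96, -0.61 and -0.55 in IVV XB on 1 probe (0.94, SE 0.23, adjusted p = 0.182), and had 1.52 on the other (adjusted p = 0.364). KRT18, its partner, had 0.79 (adjusted p = 0.53), while KRT19 had -0.11 and CDX2 0.26 and -0.26. PPARG had 0.57, and TFAP2C 0.63 and -0.67 on its 2 probes. Of 17 measured trophectoderm genes none was called, and the median was 0.20. At an unadjusted p under 0.05, 4 were higher and none lower, 23.5% of the list beside 7.9% of all named genes. In the inner cell mass list none of 9 measured genes was called or had an unadjusted p under 0.05, and the median was 0.09, with POU5F1 at 0.50 and -0.06 on its 2 probes.

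Hypoblast genes had a median of 0.34 over 12 measured members, and APOE was the 1 called. LAMB1, a basement membrane laminin chain, had 0.94 (adjusted p = 0.18), and GATA6 and FOXA2, transcription factors of the early endoderm, had 0.17 and 0.34. Neither 21 measured junction genes, 16 genes of ion and water transport, 29 cell cycle genes nor 22 apoptosis genes held a call. BAD, a death-promoting BCL2 relative, had -1.24 (adjusted p = 0.132). In the Notch list none of 21 measured genes was called. JAG1, a Notch ligand, had -1.27, 0.24 and -0.15 on its 3 probes, and HEY2, a Notch target, 0.04. KCTD3, a potassium channel domain protein, had 0.11, 0.04 and -0.04. On the first JAG1 probe the ratios were low throughout, from -6.82 to -5.65 in IVV HB and from -6.46 to -3.71 in IVV XB, and the change against the day 5 pools alone was -2.06 (adjusted p = 0.00826).

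Without the day 6 pool, 271 probes were called between IVV HB and the day 5 IVV XB pools (1.09% of all probes), 55 of them higher (0.221%) and 216 lower (0.867%) in IVV HB. They named 138 genes, 31 higher and 107 lower. IVV XB 3 took no part in these calls. For each probe the place of IVV XB 3 was expressed from 0, the mean of the day 5 IVV XB pools, to 1, the mean of IVV HB. The probes were chosen by the gap between these same means, which tends to widen it, so the places are a description. Over the 55 higher probes the median place of the day 6 pool was 0.41 (quartiles 0.21 and 0.51), nearer to the day 5 pools in most. Over the 216 lower probes the median was 0.93 (quartiles 0.71 and 1.06), and in 129 of these the day 6 pool was at or below the nearest hatched pool. No test was made of this difference, since it rests on a single pool.

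**Figure D3:**
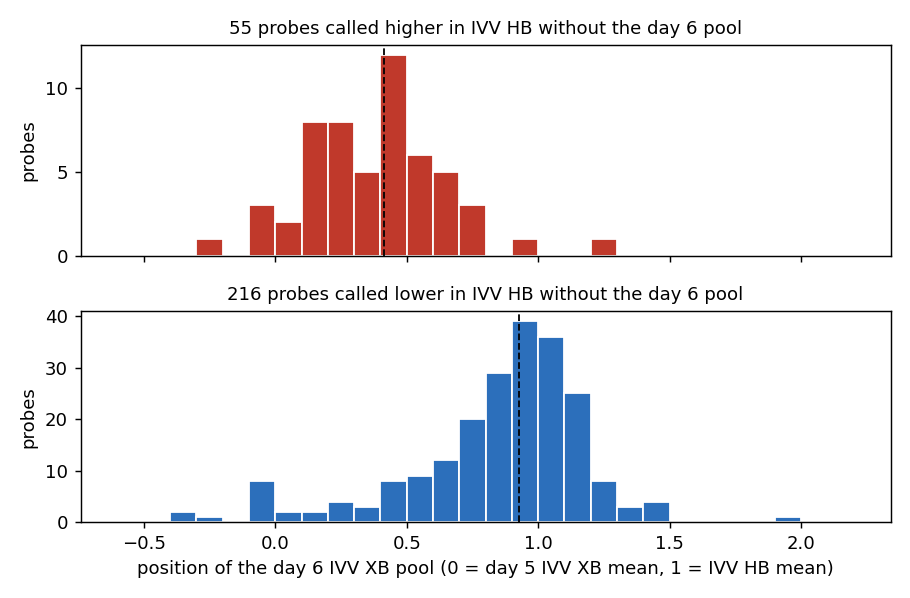
Number of called probes (vertical axis) by the position of the day 6 IVV XB pool between the day 5 IVV XB mean (0) and the IVV HB mean (1), for probes higher and lower in IVV HB when the day 6 pool was left out. Dashed lines mark the medians, 0.41 for the 55 higher and 0.93 for the 216 lower probes.

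Genes differed in where the day 6 pool read. IL6 (-0.03), MAP1LC3B (0.05), GAPDH (-0.07), LGMN (0.04), SFT2D2 (-0.28) and LOC100514912 (-0.05) had it at or beside the day 5 level. In these genes the unhatched pools of both labelled days stood apart from the hatched pools, all of which were labelled day 5.5. DPP4 (0.38), NPC1 (0.40), GNPDA1 (0.44), NPC2 (0.49) and CDA (0.51) had the day 6 pool between the stages. CDA, cytidine deaminase, a gene chosen after its values were seen, read 0.93, 1.91 and 2.37 in IVV HB, against -1.16, -0.70 and 0.42 in IVV XB (log2 fold change 2.22, adjusted p = 0.0563 with all arrays and 2.66, adjusted p = 0.00366, without the day 6 pool). In the last kind the day 6 pool was at the hatched level. In 202 of the 271 probes, CDA included, it was nearer to the IVV HB mean than to the day 5 mean. Over all probes this pool lay at 0.73 between the stages, so a place toward IVV HB is not particular to the called probes. The share of all probes with the pool nearer to IVV HB was not counted. A gene of the last kind could hardly pass with all arrays, since the day 6 pool then widens the spread of IVV XB. With 1 unhatched pool of that day, its age, its collection and its array cannot be told apart.

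Of the genes of the last kind that are named here, HSD17B2, HPGD, LGALS3, LIPA, MME and SC4MOL were among the lowest p of a list, and the others were chosen after their values were seen. CYP26A1, which degrades retinoic acid, read -2.43, -1.57 and -1.79 in IVV HB, against 3.11, 2.60 and -2.55 in IVV XB 1, XB 2 and XB 3. The day 5 pools were high and the day 6 pool was the lowest of all 6. Against the day 5 pools CYP26A1 changed by -4.78 (log2; SE 0.33, limma adjusted p = 5.76e-05). With all arrays the value was -2.98 (SE 1.02) and did not pass (adjusted p = 0.462). ALDH1A3, which makes retinoic acid, followed the same pattern, with -1.23, -0.22 and 0.09 in IVV HB, against 3.04, 1.97 and -0.63 in IVV XB (-2.96 without the day 6 pool, adjusted p = 0.0238).

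Without the day 6 pool 2 of 17 steroid and prostaglandin enzymes, HSD17B2 and HPGD, were called lower and STS higher. Of all named genes 1.22% were then called lower and 0.386% higher. HSD17B2, which oxidises oestradiol to oestrone, read -0.39, -0.45 and -0.61 in IVV HB, against 2.30, 2.17 and -0.57 in IVV XB (-2.72 without the day 6 pool, SE 0.20, adjusted p = 7.14e-05), while its second probe had -0.07. HPGD, which oxidises prostaglandins, read 0.02, -0.34 and 0.42 in IVV HB, against 3.52, 2.11 and 0.41 in IVV XB (-2.78, adjusted p = 0.0013), and its second probe had -1.90 (adjusted p = 0.0441). RXFP1, the relaxin receptor, read -0.42, -0.60 and -0.65 in IVV HB, against 2.71, 1.90 and -0.38 in IVV XB (-2.86, adjusted p = 1.68e-04). In each of these genes only the day 5 pools were high.

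Among immune and mucosal genes, CCL28 and CXCL16, chemokines of epithelia, differed by -2.86 and -2.49 without the day 6 pool (adjusted p = 4.57e-04 and 0.0142). LGALS3, a galactoside-binding lectin, read -2.89, -1.99 and -1.59 in IVV HB, against 2.11, 0.76 and -2.95 in IVV XB (-3.59, adjusted p = 5.07e-04). SLA-3, a pig class I histocompatibility gene, differed by -3.42, TRAF3IP2, an adaptor of the IL-17 receptor, by -4.15, and CP, the ferroxidase ceruloplasmin, by -3.35 (adjusted p from 9.99e-05 to 0.00191), while a second CP probe had -0.32. SLA-3 belongs to a family of close copies, and which of them its probe reads is uncertain. In lipid metabolism, SCD5, a stearoyl-CoA desaturase, differed by -3.45 and LIPA by -3.04 (adjusted p = 2.72e-04 and 0.00329). In CYP51 and SC4MOL, of sterol synthesis, the day 6 pool was the lowest of the 6 pools. CYP51 read -1.59, -1.52 and -1.32 in IVV HB, against 1.29, 0.61 and -3.70 in IVV XB, so that the day 6 pool lay well below the hatched pools. SC4MOL read -2.63, -2.80 and -3.53 in IVV HB, against -0.54, -0.62 and -4.14 in IVV XB. A probe annotated as CYP51A1, another name of CYP51, had -0.86 without the day 6 pool and did not pass (adjusted p = 0.404). Of the 12 measured genes of the sterol synthesis list SC4MOL was the 1 called without the day 6 pool, and their median was then -0.08. Of all named genes 1.22% were then called lower. The list held CYP51A1 and not the probe annotated as CYP51, which was also called lower (-2.43, limma adjusted p = 1.87e-04). SAT1, which catabolises polyamines, MME, the endopeptidase neprilysin, and SLC5A1, the sodium-glucose transporter of intestine and endometrium, differed by -3.82, -2.48 and -2.32 (adjusted p = 5.07e-04, 0.0042 and 2.93e-04), while other SLC5A1 probes had 0.01 and -0.10.

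**Figure D4:**
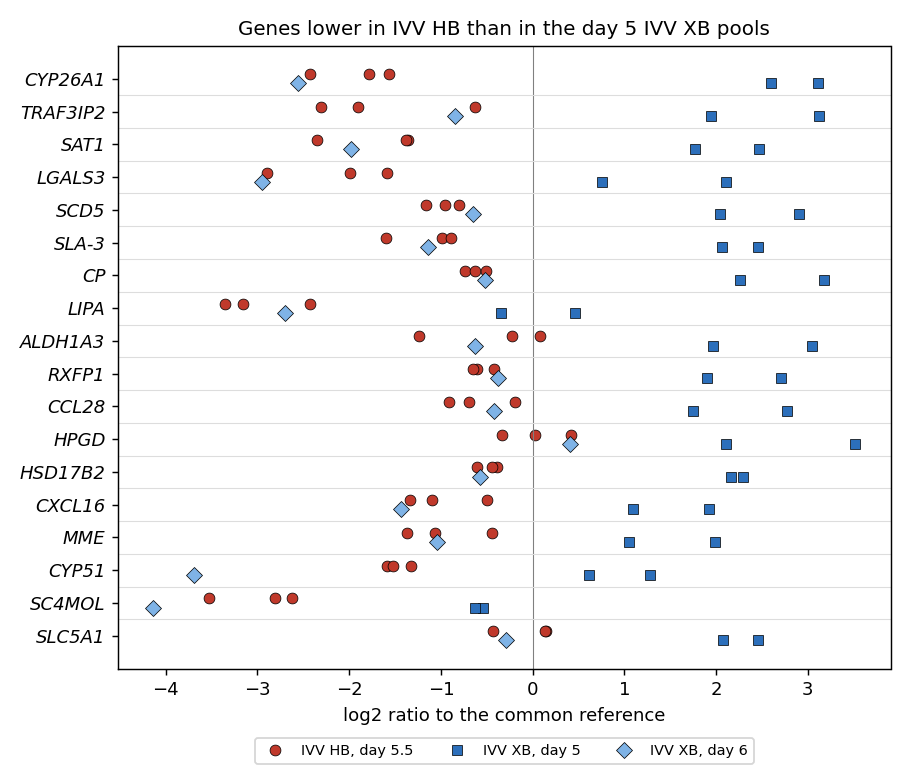
Log2 ratio to the common reference (horizontal axis) of 18 genes called lower in IVV HB than in the day 5 IVV XB pools, with a point for each pool. The squares of the day 5 pools stand to the right, and the diamond of the day 6 IVV XB pool lies among the IVV HB circles, near them or to their left, farthest so for CYP51.

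In 191 of the 216 lower probes both day 5 IVV XB pools read above all 10 other arrays, the parthenogenetic ones included. Of all probes 5.93% did so. In 33 of the 55 higher probes both read below all of them, as in 6.34% of all probes. The choice of these probes already placed the day 5 pools beyond the 3 IVV HB arrays, so these counts are a description. For CYP26A1 the mean was -1.83 ± 0.55 in PA HB and -1.69 ± 0.11 in PA XB, and for HPGD it was -0.42 ± 0.14 in PA HB and -0.46 ± 0.08 in PA XB (SD, n = 3 each). Several of the genes, such as HSD17B2, HPGD and SLC5A1, are also known from endometrial epithelium. A list of uterine epithelial markers had 8 measured members, and none was called with or without the day 6 pool. Its median ratio ranged from -0.02 to 0.20 in IVV HB. In IVV XB it was -0.32 and -0.22 in the day 5 pools and 0.14 in the day 6 pool. Whether uterine cells were present in any pool was not tested. Of single markers, ESR1, SLPI, STC1, FOXA2, RBP4, LTF, CLDN10 and PAEP had log2 fold changes between -0.14 and 0.46. The markers of cumulus cells (15 measured), leukocytes (9), erythrocytes (4) and sperm (4) also held no call. HBE1, an embryonic globin, had 1.41 (adjusted p = 0.119).

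FN1 and ARRB1 were also called higher in IVV HB only when the day 6 pool was left out. FN1, fibronectin, read -1.25, -0.31 and -1.22 in IVV HB, against -2.33, -2.51 and -1.71 in IVV XB (1.49, adjusted p = 0.0317), with 0.13 on its second probe. ARRB1, a beta-arrestin chosen after its values were seen, read 1.79, 1.88 and 2.02 in IVV HB, against 0.64, 0.51 and 1.86 in IVV XB (1.32, adjusted p = 0.012), and was the 1 gene named here that was higher in IVV HB with the day 6 pool at the hatched level (0.97).

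The parthenogenetic arrays gave a second hatching comparison, on other embryos. Their labels give a collection time of 7 for PA HB and of 5 to 6 for PA XB in hours after in vitro fertilization, a unit that cannot hold for blastocysts. Between PA HB and PA XB 2 probes were called (0.00803%), 1 of them naming SLC36A2, a proton-coupled amino acid transporter, which was higher by 3.29 on the log2 scale in PA HB and by 0.74 in IVV HB (adjusted p = 0.0022 and 0.765). With a replicate block in the fit, shared by the IVV and PA arrays of the same number, 8 probes were called. At an unadjusted p under 0.05 there were 1582 probes. The PA arrays spread more widely than the IVV arrays, with a median absolute deviation of 0.60 to 0.73 over all probes, against 0.39 to 0.48.

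The probes called in IVV embryos mostly had the same sign in PA embryos, at smaller size. Of the 37 called probes 34 had the same sign, where 54.7% of all probes did, and 13 of these also reached 2-fold. All 37 had the smaller absolute change in PA embryos, a comparison the choice of probes on the IVV change favours. The median change of the higher probes was 1.64 in IVV and 0.76 in PA embryos, and that of the lower probes was -1.84 in IVV and -0.65 in PA embryos. GNPDA1 (1.76 in IVV and 1.68 in PA), LGMN (1.30 and 1.29) and LOC100514912 (-2.85 and -1.80) came near each other. APOE (1.46 and -0.02), MAP1LC3B (-1.66 and -0.11), GATA2 (1.27 and -0.17) and KRT8 (0.94 and 0.05) did not.

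**Figure D5:**
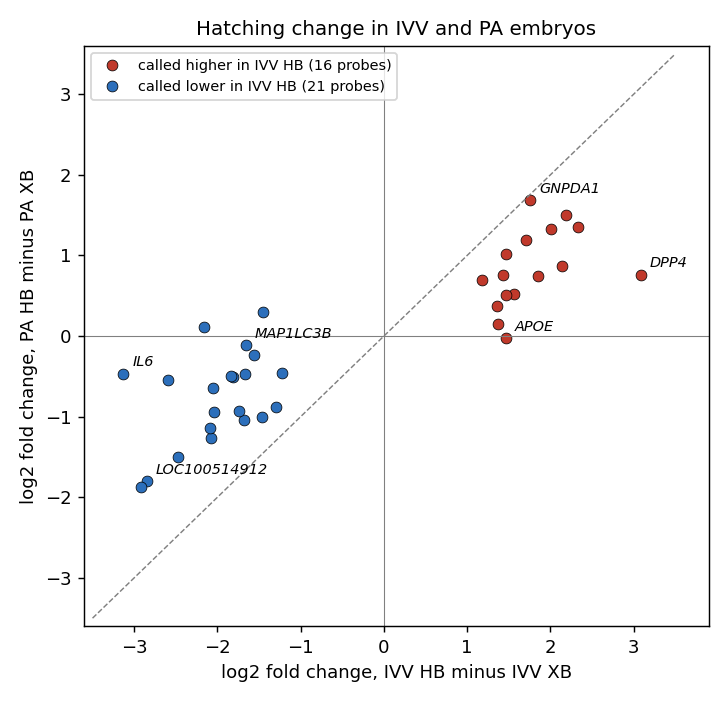
Log2 fold change of PA HB over PA XB (vertical axis) against that of IVV HB over IVV XB (horizontal axis) for the 37 probes called in IVV embryos, with the line of equal change dashed. The points lie between that line and 0 for most probes, with IL6 (-3.13 in IVV, -0.47 in PA) and DPP4 (3.09 and 0.76) far from the line.

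The difference between the 2 hatching changes was tested in the same fit. With all arrays 2 probes passed (0.00803%), IL6 and a probe without a symbol, and 1227 had an unadjusted p under 0.05. IL6 changed by -3.13 in IVV embryos and by -0.47 in PA embryos, where it averaged 0.21 ± 0.14 in PA HB and 0.67 ± 0.34 in PA XB (SD, n = 3 each), a difference of -2.66 (SE 0.34, adjusted p = 0.0254). Neither probe passed when any of 9 of the 12 arrays was left out. For DPP4, APOE and MAP1LC3B the differences were 2.32, 1.49 and -1.54 (adjusted p = 0.586, 0.254 and 0.474), so a different response to hatching was not shown with all arrays. Without the day 6 pool 71 probes passed (0.285%), 12 with a more positive and 59 with a more negative change in IVV than in PA embryos, and 60 of them were also called between IVV HB and the day 5 IVV XB pools. IL6 (adjusted p = 0.00939), DPP4 (2.77, adjusted p = 0.0266) and APOE (1.58, adjusted p = 0.032) were among them, as were CYP26A1 (-4.65, adjusted p = 8.74e-04), HSD17B2 (-2.51, adjusted p = 0.0016), HPGD (-2.81, adjusted p = 0.0253) and CCL28 (-2.96, adjusted p = 0.00901).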

How the data were processed

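Total RNA from pools of 5 embryos was amplified by T7 polymerase in 2 rounds, labelled with Cy5 and hybridized with a Cy3-labelled common reference on a porcine embryo array. The authors subtracted background and applied global loess within each array in FlexArray (version not given in the sources used here), and the deposited log2 ratios were used as they stand. There are 24908 probes on 12 arrays and none is missing. That the values run as sample over reference was checked with 26 oocyte genes, whose median ratio was -3.27 in IVV arrays. Such amplification can compress or distort ratios, and depth has no meaning for arrays, where the number of arrays limits the precision. No control or flag column was used, so dim probes could not be marked.

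Probes were named from the platform annotation, in which 14173 have no symbol, and 75 names were updated through RefSeq accessions. A linear model with a mean for each of the 4 groups was fitted to all 12 arrays (limma 3.58.1, R 4.3.3), with contrasts for IVV hatching, PA hatching and their difference. Probes were called at a Benjamini-Hochberg adjusted p of at most 0.05 over all probes and a 2-fold change. List members were counted on 1 probe per gene, chosen by the smallest moderated F-test p between the 4 groups, and no set test was run. On simulated data of 24908 probes for IVV HB against IVV XB, 50% of 2-fold, 88% of 3-fold and 98% of 4-fold changes were recovered, with 5 false calls. A call needs an estimated change of at least 2-fold, so a true 2-fold change passes only when its estimate falls at or beyond that limit. The rate for 2-fold changes is thus capped by the limit, whatever the spread. Errors in the simulation were normal and independent between probes, and no pool deviated on many probes together as the day 6 pool did. These rates therefore do not give the recovery on the real arrays.

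The members and lists were chosen with earlier results of these data known. Genes were named when called, when the study discusses them for hatching, when among the 4 lowest p of a list, or as paralogs, and exceptions are stated; values of further list members and of second probes were added for comparison. No sequences are shown, since none were used here.

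Same-numbered IVV HB and IVV XB arrays deviated from their group means with correlations of 0.025, -0.132 and 0.201, so the numbers were not taken as pairs. For the PA arrays the values were 0.454, 0.321 and 0.22, all above 0.1, so a paired count is given there. Alternatives were array scaling, quantile normalization, a replicate block, array weights, robust moderation, IVV arrays alone, the labelled day as a covariate, gene means, the more variable 50% of probes, no fold limit and leaving out each array. Figures were drawn with matplotlib 3.10.9.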

Additional observations from a re-analysis of the deposited data

Results flagged for a closer look

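The hatching changes of IVV and PA embryos differed for 2 probes in the limma test of the difference itself. IL6 changed by -3.13 in IVV embryos and by -0.47 in PA embryos, a difference of -2.664 on the log2 scale (adjusted p = 0.0254). A probe with no symbol, probe_42108, changed by -0.13 in IVV embryos and by 3.25 in PA embryos, a difference of -3.389 (adjusted p = 0.0254). Groups of 3 arrays are too small for a search for outlying samples.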

How the results depend on the processing

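All 37 called probes kept their sign under every setting in which their calls were recounted, whereas the number of calls moved. Against 37 probes (16 higher, 21 lower) and 16 genes, scaled arrays gave 125 (71 higher, 54 lower; 51 genes), quantile normalization 125 (60 and 65; 51 genes) and array weights 339 (166 and 173; 162 genes). IVV arrays alone gave 13 higher and 13 lower (18 of the 37 kept), the day as covariate 37 lower (22 kept), and the more variable 50% of probes 26 higher. Leaving out each array gave 5 to 271 probes (0 to 55 higher, 4 to 216 lower) and 3 to 138 genes. Without both arrays of replicate 3, a setting chosen after seeing the data, 151 probes were called (136 lower; 85 genes; 24 kept). The replicate block gave 68 probes (38 higher; 32 genes), all 37 included; IVV HB 1, HB 2 and XB 2 deviated more like an array of another number than like their own. PA hatching had 0 probes in scaled arrays, 1 after quantile normalization and 8 with the replicate block, against 2. The difference between the hatching changes had 1 probe under scaling and under quantile normalization, and 0 to 71 without each array. The CYP51 change, which is -0.88 with all arrays, ranged from -2.43 (without IVV XB 3) to 0.0635 (without IVV XB 1) as single arrays were left out, and was -2.51 without both arrays of replicate 3. Causes were not tested. Of the values for named genes, 619 kept direction and side of the threshold, 68 lost it and 111 gained it. With 3 pools per stage and 1 unhatched pool of day 6, precision is limited, and dim probes could not be marked. Changes estimated under 2-fold were excluded by the fold limit of the call. With no fold limit 38 probes passed, against 37.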
